A study of Mus musculus with 56 samples.

Results

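The 10 genes described here mark the endothelial cells of the liver. They were taken by name from the RNA-seq table, which lists 21888 gene symbols, and all 10 passed the filter on low values. Stab2, Clec4g, Lyve1, Oit3 and Fcgr2b are genes of the liver sinusoids. Pecam1, Cd34, Vwf and Plvap are strong in the continuous vessels of other organs. Kdr encodes VEGF receptor 2, which both kinds of vessel carry.

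RNA-seq was performed on 14 livers of 129Sv/J mice, 1 library per mouse. Adult mice with LoxP sites around pre-miR-122 were left uninjected (day 0, n = 3) or received rAAV8-Ef1a-Cre and were harvested at day 21 (n = 3), day 45 (n = 3), day 100 (n = 1) or day 200 (n = 1), and 3 further livers came from germline miR-122 knockout mice. Days 100 and 200 were compared as 1 group of 2 mice. The comparisons ask how the endothelial genes stood after the loss of miR-122, the main microRNA of hepatocytes. The uninjected mice carried the floxed allele but no vector, so that vector and miR-122 loss cannot be told apart in the floxed mice. The Ef1a promoter is active in many cell types. The sources used here do not state how the knockout mice were bred in relation to the floxed mice, or which mice were male or female.

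Liver sinusoidal endothelial cells have open pores (fenestrae) and no organised basement membrane, so that plasma reaches the hepatocytes directly. They take up waste from blood through scavenger and lectin receptors. In chronic liver injury they can lose the pores and gain a basement membrane and surface proteins of ordinary capillaries, such as CD34, a change known as capillarization.

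In the small RNA libraries of the floxed mice, miR-122 made up 73.3%, 59.2% and 66.7% of the listed reads at day 0 and 12.5%, 13.2% and 8.22% at day 21. At day 45 its share was 0.908%, 0.383% and 1.23%, at day 100 it was 4.46% and at day 200 19.1%. No small RNA library of the germline knockout was analysed here, so its label was not checked this way.

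On mm9 as the table gives them, the sinusoidal genes lie at chr10:86303955-86470687 (Stab2), chr8:3716071-3720651 (Clec4g), chr7:117994121-118006467 (Lyve1), chr10:58885708-58904527 (Oit3) and chr1:172890689-172906202 (Fcgr2b). The continuous-vessel genes lie at chr11:106515532-106576595 (Pecam1), chr1:196765015-196787486 (Cd34), chr6:125502981-125636695 (Vwf) and chr8:74021652-74035668 (Plvap), and Kdr at chr5:76329299-76374453. Each span is the whole gene, exons and introns, and the values sum its transcripts.

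The libraries were not alike in how level depended on transcript length. Across genes, the rank correlation of a library's level (relative to the mean library) with transcript length was −0.23 in day 0 replicate A, −0.43 in knockout replicate A and −0.31 in knockout replicate B, against −0.06 to 0.37 in the other 11. Knockout replicate C (0.21) stood apart from its 2 partners. Of the 10 genes, Vwf (8.83 kb), Stab2 (8.23 kb) and Kdr (5.92 kb) have the longest transcripts, while those of Clec4g (1.44 kb) and Plvap (2.02 kb) are short. FPKM hold no fragment numbers, but the steps between low values put the depth at roughly 35800000 to 50600000 fragments in floxed livers and 25500000 to 31000000 in the knockout. On that scale the thinnest values, Lyve1 in knockout replicate C and Cd34 in day 0 replicate B, stood for about 65.5 and 99.4 fragments.

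The 250 bases before the start of 3 of the genes are shown because Cd34 rose most, Clec4g was the most abundant and Stab2 passed in no comparison. They are RefSeq windows on GRCm38.p6, printed 5′ to 3′ on the gene's strand. Capitals mark AGGAAG on either strand, a core of the sites of ETS factors, which bind many endothelial promoters.
Cd34, chr1:194938571-194938820, plus strand: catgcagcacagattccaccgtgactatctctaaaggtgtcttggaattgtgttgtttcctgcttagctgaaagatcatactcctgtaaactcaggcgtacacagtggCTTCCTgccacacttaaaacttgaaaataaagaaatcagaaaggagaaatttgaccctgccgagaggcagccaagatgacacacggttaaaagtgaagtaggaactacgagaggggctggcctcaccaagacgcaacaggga
Clec4g, chr8:3720652-3720901, minus strand: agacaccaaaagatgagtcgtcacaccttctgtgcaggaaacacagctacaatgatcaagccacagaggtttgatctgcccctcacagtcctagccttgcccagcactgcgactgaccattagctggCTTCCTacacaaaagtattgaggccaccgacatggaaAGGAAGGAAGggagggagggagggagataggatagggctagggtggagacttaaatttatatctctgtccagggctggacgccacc
Stab2, chr10:87007943-87008192, minus strand: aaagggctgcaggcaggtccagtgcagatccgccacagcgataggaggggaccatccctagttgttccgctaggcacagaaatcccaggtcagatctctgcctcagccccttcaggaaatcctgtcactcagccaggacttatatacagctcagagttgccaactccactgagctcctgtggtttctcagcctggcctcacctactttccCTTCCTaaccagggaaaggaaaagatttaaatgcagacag
Of the 5 windows at hand, which include Fcgr2b and Kdr, AGGAAG on either strand was in 3 and not in those of Fcgr2b and Kdr, and 29.5% of all 32851 windows of this length hold it. It was there once in Cd34 and in Stab2 and 3 times in Clec4g, where 2 of the matches overlap. AGATAA and TGATAA, forms of the site of GATA factors, were searched on both strands and were in none of the 5 windows, while 9.99% and 7.94% of all windows hold them. The motif counts describe these letters and are not evidence of binding.

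In uninjected livers the levels per transcript length spanned about 2 orders of magnitude. Clec4g was highest at 79.6 ± 17.2 FPKM (SD, n = 3), followed by Fcgr2b at 38.8 ± 8.88, Plvap at 20.7 ± 5.02 and Oit3 at 14.8 ± 5.45 FPKM. Kdr (10.3 ± 4.13), Pecam1 (8.28 ± 3.02) and Stab2 (8.06 ± 3.01) came next and lay within each other's spread. Lyve1 (3.38 ± 1.32 FPKM), Cd34 (1.14 ± 0.285) and Vwf (0.839 ± 0.251) were lowest, and the last 2 overlapped. In bulk tissue, fewer cells of a type and less RNA per cell cannot be told apart.

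**Figure D1:**
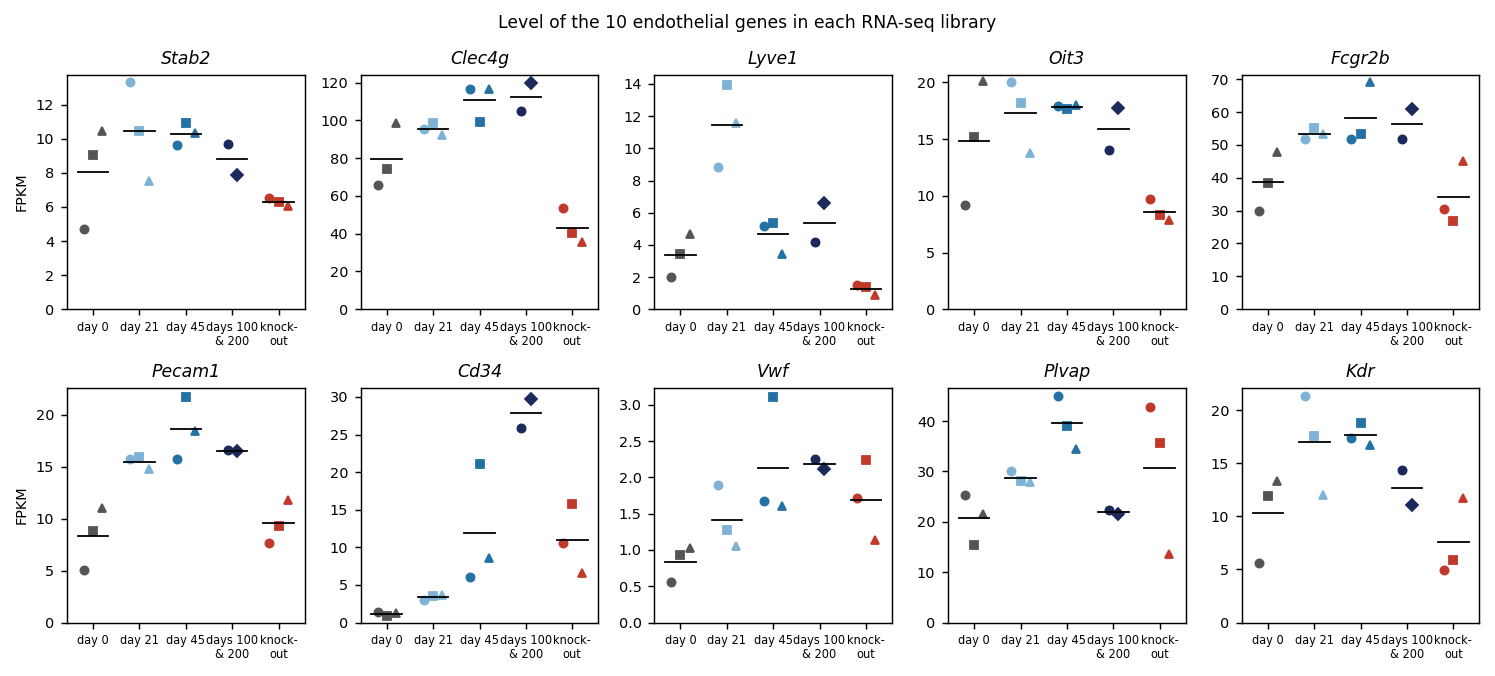
Level of each gene in FPKM (vertical axes, from 0) in the 14 RNA-seq libraries by group, with a bar at the group mean. Circles, squares and triangles are replicates A, B and C, and among days 100 and 200 the circle is day 100 and the diamond day 200. Cd34 lay between 0.829 and 1.39 FPKM at day 0 and at 6.03 FPKM or more at day 45, at days 100 and 200 and in the knockout.

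Cd34 changed most. It encodes a sialomucin of the surface of capillary endothelium, which blood progenitors and fibroblasts also carry. Its level was 1.39, 0.829 and 1.2 FPKM at day 0 and 3, 3.48 and 3.6 FPKM at day 21. At day 45 the 3 livers held 6.03, 21.1 and 8.65 FPKM, and the livers of day 100 and day 200 held 25.9 and 29.8 FPKM. Every injected liver lay above every uninjected one, and the day 100 and 200 livers above all the rest. The knockout livers, at 10.5, 15.8 and 6.55 FPKM, lay in the range of day 45. The mean was thus 10.5 times that of day 0 at day 45 and 24.4 times at days 100 and 200. On the log2(FPKM + 1) scale the differences from day 0 were 2.43 ± 0.36 (SE; adjusted p = 0.000887) at day 45, 3.76 ± 0.40 (adjusted p = 9.26e-05) at days 100 and 200 and 2.42 ± 0.36 (adjusted p = 0.000849) in the knockout. These calls held in each of the 18, 16 and 19 alternatives run, with the largest adjusted p at 0.00576, 0.00263 and 0.0473. At day 21 the difference of 1.03 ± 0.36 did not pass (adjusted p = 0.11), although the groups did not overlap. It passed with a pseudocount of 0.1 (adjusted p = 0.0363) and in the fit of those 2 groups alone (adjusted p = 0.013). The knockout differed from day 45 by −0.01 ± 0.36.

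Pecam1 encodes the junction protein CD31 of all endothelium. It stood at 5.04, 8.8 and 11 FPKM at day 0, at 15.7, 15.9 and 14.7 FPKM at day 21 and at 15.7, 21.7 and 18.4 FPKM at day 45. The livers of days 100 and 200 held 16.5 FPKM each, so that every injected liver was above every uninjected one. Against day 0 the gene rose by 0.88 ± 0.23 on the log2 scale at day 21 (adjusted p = 0.0365), by 1.12 ± 0.23 at day 45 (adjusted p = 0.00386) and by 0.97 ± 0.26 at days 100 and 200 (adjusted p = 0.0121). Only the rise at day 45 held when any 1 library was left out. The rise at day 21 was lost without day 0 replicate A (adjusted p = 0.122) or B (0.0837) or any 1 of the day 21 livers A, B and C (0.0886, 0.115 and 0.103). That of days 100 and 200 was lost without day 100 (adjusted p = 0.0846) or without day 200 (0.0605). The knockout, at 7.63, 9.27 and 11.8 FPKM, overlapped day 0 (log2 difference 0.23 ± 0.23, adjusted p = 0.455).

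Vwf encodes von Willebrand factor, the platelet tether that endothelium stores and secretes. The day 0 livers held 0.555, 0.935 and 1.03 FPKM, those of day 21 1.9, 1.28 and 1.06, and those of day 45 1.67, 3.1 and 1.6 FPKM. At days 100 and 200 the level was 2.25 and 2.12 FPKM, and in the knockout 1.72, 2.23 and 1.13 FPKM. The 3 uninjected livers were the lowest of the 14. Their mean, 0.839 FPKM, was under the filter, which the gene passed through groups with higher levels, so the filter favours a rise against day 0. Log2 differences from day 0 were 0.74 ± 0.22 at day 45 (adjusted p = 0.0236), 0.80 ± 0.24 at days 100 and 200 (adjusted p = 0.0237) and 0.54 ± 0.22 in the knockout (adjusted p = 0.07). The day 45 call was lost without day 0 replicate A (adjusted p = 0.0932) or day 45 replicate B (0.115). The later call was lost without day 0 replicate A (0.0801), day 100 (0.146) or day 200 (0.0841). With the length relation taken out of each library, the differences were 0.50 at day 45 (adjusted p = 0.166), 0.43 at days 100 and 200 (0.274) and 0.83 in the knockout, which then passed (0.0214).

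Plvap encodes the protein of the diaphragms that span endothelial pores and is strong in many capillaries outside the liver. Its level was 25.3, 15.4 and 21.5 FPKM at day 0, 30.1, 28.2 and 27.9 FPKM at day 21 and 45, 39.1 and 34.5 FPKM at day 45. The day 45 livers all lay above those of days 0 and 21, but the difference from day 0 missed the threshold (0.92 ± 0.32 on the log2 scale, adjusted p = 0.0533). It passed with the filter at a mean of 0.1 FPKM (adjusted p = 0.0486) and in the fit of those 2 groups alone (0.012). At days 100 and 200 the level was 22.4 and 21.5 FPKM, within the range of day 0. In the knockout, replicates A and B held 42.7 and 35.7 FPKM and replicate C 13.7 FPKM, below every other liver. The difference of the knockout from day 0 was 0.43 ± 0.32 (adjusted p = 0.309) with all 3 and 0.91 without replicate C (adjusted p = 0.0012; 0.0012 to 0.805 over the 19 alternatives).

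Among the sinusoidal genes, Clec4g and Lyve1 were lower in the knockout than in either day 0 or day 45 livers, and Lyve1 was high at day 21. Clec4g encodes LSECtin, a C-type lectin of sinusoidal endothelium. The day 0 livers held 65.5, 74.4 and 98.8 FPKM, the day 21 livers 95.4, 98.8 and 92.2 FPKM and the day 45 livers 117, 99.3 and 116 FPKM. At days 100 and 200 the level was 105 and 120 FPKM, while the knockout livers held 53.8, 40.4 and 35.5 FPKM. All 3 knockout livers were below the other 11. Clec4g fell by 0.87 ± 0.19 on the log2 scale in the knockout against day 0 (adjusted p = 0.00554), and this call was lost in 1 of 19 alternatives, the fit of those 2 groups alone (adjusted p = 0.0672). The day 45 livers lay above day 0 without overlap, by 0.49 ± 0.19, which did not pass (adjusted p = 0.0707). This difference passed in 1 of 18 alternatives, without day 0 replicate C (0.0304).

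Lyve1 encodes a hyaluronan receptor of sinusoidal and lymphatic endothelium. Its level was 2.03, 3.45 and 4.66 FPKM at day 0 and 8.86, 13.9 and 11.6 FPKM at day 21, then 5.18, 5.35 and 3.43 FPKM at day 45. The livers of days 100 and 200 held 4.18 and 6.59 FPKM, and the knockout livers 1.49, 1.36 and 0.869 FPKM. The day 21 livers were thus above all others and the knockout livers below all others. The rise at day 21 was 1.53 ± 0.25 on the log2 scale (adjusted p = 0.00514) and passed in all 18 alternatives. The fall from day 21 to day 45, 1.14 ± 0.25, did not pass (adjusted p = 0.0877). In the knockout Lyve1 fell by 0.93 ± 0.25 against day 0 (adjusted p = 0.0165). That call was lost without day 0 replicate B (adjusted p = 0.0543) or C (0.0677) and passed in 15 of 19 alternatives. Relative to Stab2, another hyaluronan receptor, the Lyve1 level was 0.381 to 0.446 at day 0, 0.665 to 1.54 at day 21, 0.331 to 0.539 at day 45, 0.43 at day 100, 0.839 at day 200 and 0.143 to 0.228 in the knockout, so that day 200 lay within the range of day 21.

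Stab2 encodes stabilin-2, the main scavenger receptor for hyaluronan of the sinusoids. It passed in no comparison. The day 0 livers held 4.69, 9.05 and 10.5 FPKM, the day 21 livers 13.3, 10.4 and 7.53 FPKM and the day 45 livers 9.61, 10.9 and 10.3 FPKM. Days 100 and 200 gave 9.71 and 7.86 FPKM, and the knockout 6.52, 6.29 and 6.07 FPKM. Day 0 replicate A was the lowest of all 14. The log2 difference of the knockout from day 45 was −0.63 ± 0.24 (adjusted p = 0.0905), without overlap of the groups.

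Oit3, a secreted protein listed among sinusoidal genes, stood at 9.19, 15.2 and 20.1 FPKM at day 0, 20.1, 18.1 and 13.8 FPKM at day 21 and 17.9, 17.7 and 18 FPKM at day 45. Days 100 and 200 gave 14 and 17.7 FPKM, and the knockout 9.68, 8.27 and 7.87 FPKM. In the knockout Oit3 fell by 0.66 ± 0.23 against day 0 (adjusted p = 0.0437), although day 0 replicate A lay within the knockout range. The call was lost without any 1 of 5 libraries: day 0 replicates B (adjusted p = 0.121) and C (0.171) and the knockout replicates A (0.0714), B (0.125) and C (0.0544).

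Fcgr2b encodes the inhibitory Fc receptor through which the sinusoids clear immune complexes. It is also carried by B cells and macrophages, and its sequence is close to that of its neighbour Fcgr3, so that reads may be split between the 2 genes. The level was 30, 38.5 and 47.8 FPKM at day 0, 51.9, 55.2 and 53.2 FPKM at day 21 and 51.7, 53.2 and 69.3 FPKM at day 45. Days 100 and 200 gave 51.8 and 60.9 FPKM, and the knockout 30.4, 26.8 and 45 FPKM. Every injected liver lay above every uninjected one. None of the differences from day 0 passed: 0.48 ± 0.21 at day 21 (adjusted p = 0.213), 0.58 ± 0.21 at day 45 (0.0617), 0.55 ± 0.24 at days 100 and 200 (0.102) and −0.19 ± 0.21 in the knockout (0.496). That of day 45 passed in 2 of 18 alternatives, with the replicate letter as a block (0.041) and without day 0 replicate C (0.038).

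Kdr, the receptor for VEGF-A on endothelium, held 5.58, 11.9 and 13.3 FPKM at day 0, 21.3, 17.6 and 12 FPKM at day 21 and 17.4, 18.8 and 16.7 FPKM at day 45. Days 100 and 200 gave 14.4 and 11 FPKM, and the knockout 4.99, 5.92 and 11.7 FPKM. The difference from day 0 was 0.80 ± 0.33 at day 45 (adjusted p = 0.0916) and −0.40 ± 0.33 in the knockout (adjusted p = 0.343). Neither passed.

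At day 21, 2 of the 10 genes had risen against day 0, Lyve1 and Pecam1, and none had fallen. Among all 11354 genes tested, 6.2% rose and 1.42% fell. At day 45, 3 of 10 had risen (Pecam1, Cd34 and Vwf) and none had fallen, beside 23.7% of all genes that rose and 2.99% that fell. At day 45 the share called among the 10 genes was thus near that of all genes. At days 100 and 200 the same 3 genes had risen and none had fallen, beside 28.4% of all genes up and 3.21% down. Vwf averaged 0.839 FPKM at day 0 and passed the filter through groups with higher levels, so its calls lend no support to these counts. With the values as deposited, all 10 genes had positive differences at each of these times, which under the centrings given further on held for Cd34 and Pecam1 but not for all the others, with medians of 0.48, 0.66 and 0.53 on the log2 scale, while the median of all genes was 0.06, 0.20 and 0.31. The 5 sinusoidal genes had medians of 0.36, 0.40 and 0.51, of which 1, 0 and 0 genes passed. The 4 continuous-vessel genes had medians of 0.68, 1.02 and 0.89, of which 1, 3 and 3 passed. The call at day 21 was that of Pecam1, a gene of all endothelium, and the 3 later ones were those of Pecam1, Cd34 and Vwf. Without day 0 replicate A the calls among the 10 genes numbered 1, 2 and 2 in place of 2, 3 and 3.

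In the knockout, 3 of the 10 genes had fallen against day 0 (Clec4g, Lyve1 and Oit3) and Cd34 had risen, beside 14.5% of all genes that fell and 19.3% that rose. All 5 sinusoidal genes had negative differences (median −0.66) and all 4 continuous-vessel genes positive ones (median 0.48), with the median of all genes at 0.02. Of these, Stab2 turned to 0.012 with the length relation taken out, Pecam1 to −0.057 without day 0 replicate A, and Fcgr2b to 0.23 and Plvap to −0.54 without knockout replicates A and B. Of the continuous-vessel genes 1 of 4 passed. Without day 0 replicate B or without replicate C, the count of 4 became 2. With knockout replicates A and B both left out, an alternative chosen after the data were seen in which the remaining liver is assumed to vary like those of the other groups, Clec4g fell, Cd34 rose and no other of the 10 passed.

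**Figure D2:**
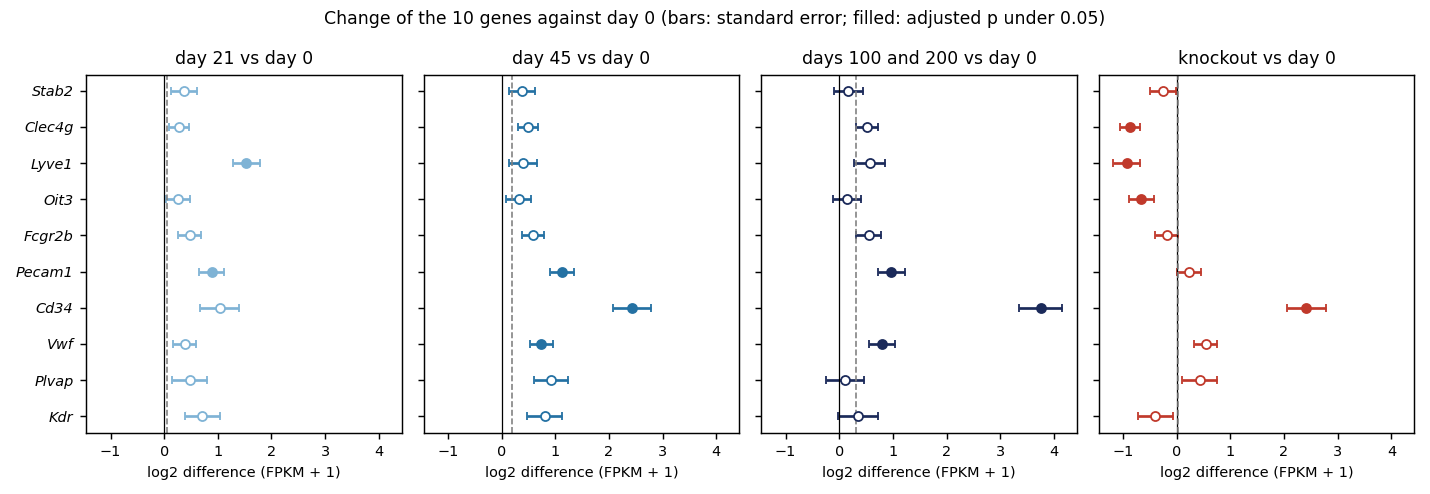
Difference of each gene from day 0 (horizontal axis, log2 of FPKM + 1) at day 21, day 45, days 100 and 200 and in the knockout, with bars of 1 standard error from the limma fit. Filled points passed the threshold, and the dashed line is the median of all genes tested. Cd34 was at 2.43, 3.76 and 2.42 in the last 3 panels, and in the knockout the 5 sinusoidal genes lay below 0, Stab2 turning to 0.012 with the length relation taken out.

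The knockout differed from day 45 in 6 of the 10 genes, all lower: Clec4g by −1.36 ± 0.19 (adjusted p = 0.00157), Lyve1 by −1.33 ± 0.25 (0.0112), Kdr by −1.20 ± 0.33 (0.0419), Oit3 by −0.98 ± 0.23 (0.0277), Pecam1 by −0.90 ± 0.23 (0.0346) and Fcgr2b by −0.77 ± 0.21 (0.0438). Of all genes 8.23% were lower and 1.21% higher, and the median of all genes was −0.23. The number of these genes that passed was 2, Clec4g and Lyve1, once each library was centred on its median, and the same 2 passed with the length relation taken out. It was 2 without day 45 replicate A, without C, or without knockout replicate A or B, and 1 without day 45 replicate B. In the fit of those 2 groups alone none of the 10 passed, while 63 of all genes did. No member passed between days 21 and 45, where 0.273% of all genes rose and 0% fell, or between day 45 and days 100 and 200, where 0.194% rose and 0.0264% fell. With limma, 2 of the 10 genes were at an unadjusted p under 0.05 in each of these comparisons, beside 16% and 7.84% of all genes, Lyve1 and Cd34 in the first and Cd34 and Plvap in the second.

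The scaling of the libraries bears on these differences. Of all genes called at day 45, 88.8% were higher as deposited, 70.3% with each library centred on its median and 11.9% with each centred on endothelial genes. The shares were 89.8%, 67.3% and 39.3% at days 100 and 200, and 12.8%, 40.0% and 97.1% for the knockout against day 45. At day 21 they were 81.4%, 74.2% and 12.2%. Centring each library on its median left Cd34 and Pecam1 past the threshold at day 45 and Cd34 alone at days 100 and 200. Centring on the mean of 22 genes of all endothelium left Cd34 alone at both times (1.73 and 3.15 on the log2 scale), with the 5 sinusoidal genes at a median of −0.31 and −0.09 in place of 0.40 and 0.51. In the knockout the 4 calls were the same under either centring.

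**Figure D3:**
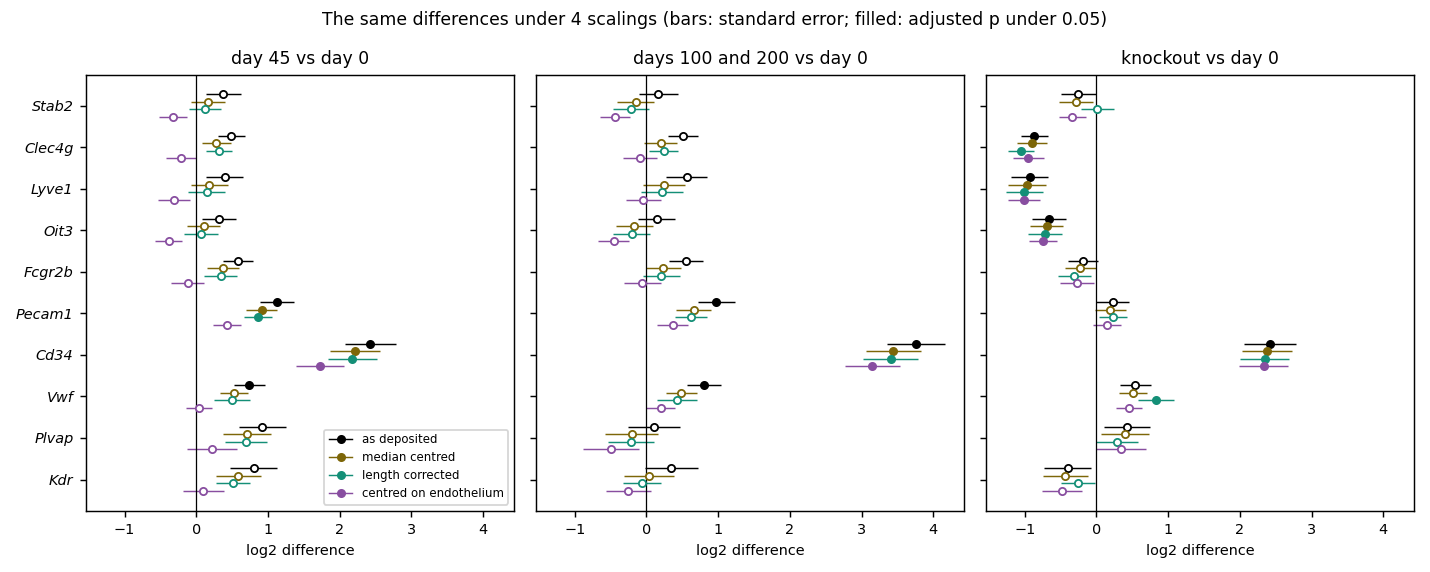
Log2 difference of each gene from day 0 (horizontal axis) at day 45, at days 100 and 200 and in the knockout with the values as deposited, centred on the median of each library, corrected for transcript length and centred on 22 genes of all endothelium. Bars are 1 standard error and filled points passed the threshold. Cd34 passed under all 4 in the 3 panels, as Clec4g, Lyve1 and Oit3 did in the knockout.

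Summed over the sets, the 5 sinusoidal genes held 111 to 182 FPKM at day 0, 178 to 196 at day 21, 186 to 217 at day 45, 184 and 213 at days 100 and 200 and 83.2 to 102 FPKM in the knockout. The 4 continuous-vessel genes held 25.9 to 34.7 FPKM at day 0, 47.3 to 50.7 at day 21, 63.2 to 85 at day 45, 67.1 and 69.9 later and 33.2 to 63 FPKM in the knockout. Their ratio was 3.45 to 5.43 at day 0, 3.74 to 4.02 at day 21, 2.19 to 3.44 at day 45, 2.75 and 3.05 at days 100 and 200 and 1.32 to 2.87 in the knockout. Every ratio from day 45 on was below the lowest of day 0, replicate C of day 45 (3.44) by little. The sums rest on a few abundant genes. Clec4g made up 52.9 to 58.8% of the sinusoidal sum at day 0 and 37.2 to 52.8% in the knockout. Plvap held 25.3 of the 32.3 FPKM of the continuous-vessel sum in day 0 replicate A. In the knockout livers it held 42.7, 35.7 and 13.7 FPKM, where the sums were 62.6, 63.0 and 33.2 FPKM. Pecam1, a gene of all endothelium, is part of that sum. Cd34 made up 3.2 to 4.3% of the continuous-vessel sum at day 0 and 38.6 and 42.6% at days 100 and 200. Relative to Pecam1 the level of Cd34 was 0.0942 to 0.275 at day 0, 0.191 to 0.244 at day 21, within the range of day 0, 0.385 to 0.971 at day 45, 1.56 and 1.8 at days 100 and 200 and 0.555 to 1.71 in the knockout.

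**Figure D4:**
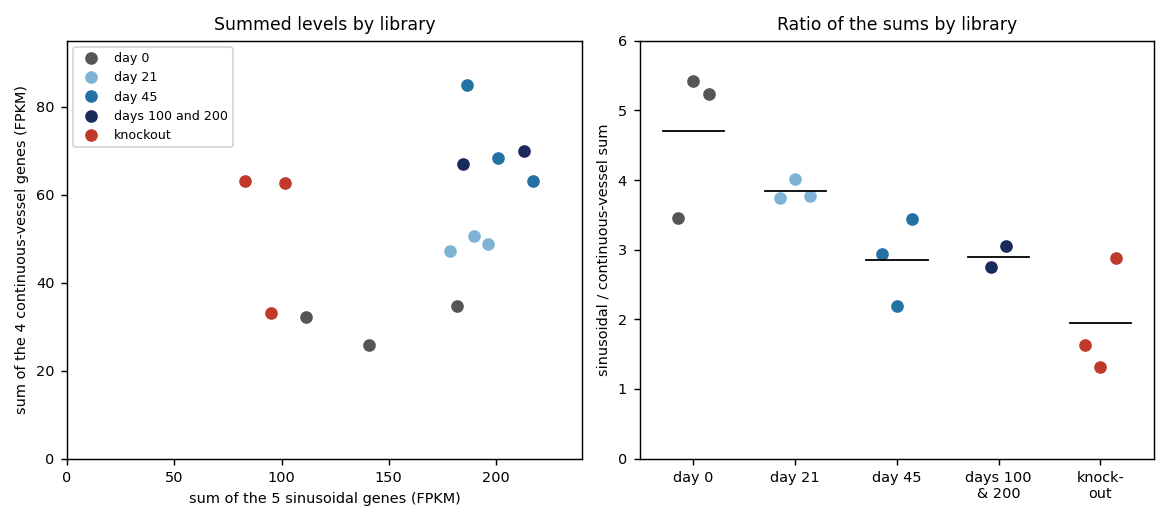
Summed FPKM of the 4 continuous-vessel genes against that of the 5 sinusoidal genes (left) and their ratio by group (right, bar at the mean), 1 point per liver. The ratio lay between 3.45 and 5.43 at day 0 and between 1.32 and 2.87 in the knockout, with no test made on these sums.

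Other endothelial genes were counted from lists that name the members of each class. These counts stand beside the 23.7%, 28.4% and 19.3% of all genes that rose at day 45, at days 100 and 200 and in the knockout, and the 2.99%, 3.21% and 14.5% that fell. With the length relation taken out, 15.4%, 16.7% and 21% of all genes rose and 9.04%, 11.1% and 19.8% fell. Centred on endothelial genes, 4.76%, 8.68% and 13.7% rose and 35.2%, 13.4% and 14.3% fell. Without day 0 replicate A, 18.2%, 23.8% and 15.6% rose and 1.7%, 2.14% and 10.2% fell. At day 21, beside 6.2% of all genes, 1 of 14 further sinusoidal genes, 3 of 22 of all endothelium, 2 of 9 of continuous endothelium and 1 of 10 of the VEGF and angiopoietin pathways rose. Leaving out day 0 replicate A, these counts were 0, 0, 1 and 0, beside 2.23% of all genes. Among the genes tested, 10 of those in the lists other than the hepatocyte list, Vwf included, had a day 0 mean under 1 FPKM and entered through groups with higher levels: Vwf, Sox7, Nos3, Efnb2, Lama5, Angpt1, Cd79a, Ms4a1, Cd22 and Col1a1. Any rise of these 10 against day 0 lends no support to the counts. Of the 14 further sinusoidal genes, 5 rose at day 45 and none fell (median 0.59). Wnt2, a signal to hepatocytes around the central vein, rose by 0.89 ± 0.18 (adjusted p = 0.00341), and Gata4, a transcription factor of sinusoidal identity, by 0.64 ± 0.19 (adjusted p = 0.0262). Flt4, VEGF receptor 3, rose by 0.96 ± 0.21 (adjusted p = 0.00608) and Thbd, the anticoagulant thrombomodulin, by 1.31 ± 0.39 (adjusted p = 0.0249). At days 100 and 200, 3 of the 14 rose, and in the knockout Thbd rose and Mrc1, the mannose receptor, fell by 0.98 ± 0.31 (adjusted p = 0.031), a gene named here after its values were seen. The share at days 100 and 200 was thus below that of all genes. The 5 calls at day 45 became 2 without day 0 replicate A and the 3 later ones 2, and Thbd then did not pass in the knockout (adjusted p = 0.0927). With the length relation taken out they became 1 and 0, and 0 and 0 centred on endothelial genes. Without knockout replicates A and B neither Thbd (0.47, adjusted p = 0.608) nor Mrc1 (−0.31, adjusted p = 0.673) passed.

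Of 22 genes of all endothelium, 10 rose at day 45, 7 at days 100 and 200, and in the knockout 4 rose and 1 fell. The one that fell, S1pr1, a receptor for sphingosine 1-phosphate, was named after its values were seen and was lower by −1.31 ± 0.38 (adjusted p = 0.0203), with overlap of the groups. Its level was 12 and 9.06 FPKM in knockout replicates A and B and 32.1 FPKM in replicate C, within the 30.7 to 50.6 FPKM of day 0, and without A and B the difference was −0.29 (adjusted p = 0.667). Cdh5, the VE-cadherin of endothelial junctions, rose by 1.16 ± 0.23 at day 45 (adjusted p = 0.00341), Tie1, a receptor of the angiopoietin pathway, by 1.13 ± 0.20 (0.00201), Cd93 by 1.14 ± 0.21 (0.0026) and Mmrn2, a matrix protein of vessels, by 0.99 ± 0.21 (0.00535). In the knockout Cdh5 stood at 0.10 ± 0.23 against day 0 and Mmrn2 at 0.01 ± 0.21. Without day 0 replicate A the counts were 8 and 3, with no rise and 2 falls in the knockout. With the length relation taken out they were 7 and 1, with 5 rises and 1 fall in the knockout. Without knockout replicates A and B, with 1 liver left, the knockout stood at −0.04 for Cdh5, 0.16 for Tie1, 0.48 for Cd93 and 0.07 for Mmrn2 against day 0.

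Of 9 further genes of continuous, arterial or activated endothelium, 7 rose at day 45, 7 at days 100 and 200 and 3 in the knockout, and none fell. Vcam1, an adhesion molecule for leukocytes, rose by 2.15 ± 0.33 at day 45 (adjusted p = 0.00103) and Ly6a, a surface protein also found on activated lymphocytes, by 2.43 ± 0.43 (0.00181). Gja4, the connexin 37 of arteries, rose by 1.55 ± 0.33 (0.0044) and Cav1, the coat protein of caveolae, by 0.92 ± 0.24 (0.0125). The count at day 45 was 4 without day 0 replicate A or with the length relation taken out, and centred on endothelial genes 3 rose and 1 fell. Without knockout replicates A and B, 1 knockout liver is left and far fewer of all genes pass, so that fit cannot decide on the 3 calls. In this liver Vcam1, Ly6a, Gja4 and Cav1 stood at 7.26, 39, 4.46 and 5.64 FPKM, and in the highest day 0 liver at 6.9, 42.7, 3.22 and 2.15 FPKM.

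Of 11 basement membrane genes, 10 rose at day 45 (median 1.25), 9 at days 100 and 200 (median 1.61) and 7 in the knockout (median 0.87), and none passed at day 21. Col4a1, a chain of type IV collagen, stood at 3.39, 4.93 and 6.35 FPKM at day 0, at 19.8, 52.1 and 21.7 FPKM at day 45 and at 17.9, 25.9 and 8.49 FPKM in the knockout. It rose by 2.35 ± 0.41 at day 45 (adjusted p = 0.00172). Sparc, a binder of collagen IV, rose by 2.14 ± 0.31 (0.000808), and the laminin chains Lamc1 and Lamb1 by 1.33 ± 0.22 (0.00152) and 1.25 ± 0.22 (0.00173). Without day 0 replicate A the knockout count was 2 of 11, whereas with the length relation taken out it was 10. Without knockout replicates A and B, 1 liver is left, and that fit cannot decide on the count. In this liver Col4a1, Sparc, Lamc1 and Lamb1 stood at 8.49, 66.5, 4.06 and 3.52 FPKM, and in the highest day 0 liver at 6.35, 38.5, 3.27 and 2.72 FPKM. Centred on endothelial genes, 6 rose and 1 fell at day 45. Stellate cells and fibroblasts make these proteins too.

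Of 10 genes of the VEGF and angiopoietin pathways that were tested, 3 rose at day 45, Flt4, Tie1 and Angpt1, the ligand of the receptor Tie2, which rose by 0.85 ± 0.26 (adjusted p = 0.0297). Angpt1 averaged 0.359 FPKM at day 0, 0.567 at day 21 and 0.625 in the knockout, and it passed the filter at a mean of 1 FPKM through the 1.56 FPKM of day 45 and the 2.69 FPKM of days 100 and 200, so its call lends no support to the count. At days 100 and 200 Vegfc, a ligand of Flt4, rose as well, by 0.85 ± 0.18 (adjusted p = 0.0042). That call was lost with the length relation taken out (0.53, adjusted p = 0.0547) and centred on endothelial genes (0.24, adjusted p = 0.414), and under each of these 1 gene of the list rose and 1 fell. In the knockout 2 of the 10 fell, Vegfa and Nrp2, near the 14.5% of all genes. Vegfa, the ligand of Kdr, was lower by −0.73 and Nrp2, a co-receptor, by −0.95 on the log2 scale. They were named after their values were seen, and without knockout replicates A and B neither passed (−0.54 and −0.68, adjusted p = 0.179 and 0.129). The count of 3 at day 45, near the share of all genes, was 2 without day 0 replicate A. With the length relation taken out 1 rose and 1 fell at day 45, and centred on endothelial genes none rose and 4 fell, near the 35.2% of all genes that then fell.

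Markers of the other cells that carry these genes moved as well. Of 12 stellate cell and fibroblast markers, 3 rose at day 21, 12 at day 45, 11 at days 100 and 200 and 8 in the knockout. Their summed level was 146 to 200 FPKM at day 0, 308 to 321 at day 21, 411 to 692 at day 45, 706 and 747 at days 100 and 200 and 231 to 342 FPKM in the knockout. Lum, a proteoglycan of fibroblasts, rose by 2.52 ± 0.31 at day 45 (adjusted p = 0.000414), Col3a1 by 3.12 ± 0.42 (0.000568), Col1a2 by 2.63 ± 0.43 (0.00131) and Dpt by 1.21 ± 0.21 (0.00164). Of 10 Kupffer cell markers, 4 rose at day 21, 10 at day 45, 5 at days 100 and 200 and 4 in the knockout, with sums of 198 to 360 FPKM at day 0, 493 to 553 at day 21, 655 to 698 at day 45, 395 and 411 later and 224 to 529 FPKM in the knockout. Fcgr3, the neighbour of Fcgr2b, rose by 1.34 ± 0.20 at day 45 (adjusted p = 0.000976), Vsig4 by 1.33 ± 0.22 (0.00147), Fcgr1 by 1.36 ± 0.24 (0.00176) and Cd68 by 1.81 ± 0.39 (0.00544). Other macrophages carry Fcgr3, Fcgr1 and Cd68 too, so this list is wider than Kupffer cells. At day 200 Timd4 (1.79 FPKM) lay below day 0, Clec4f (72) and Marco (4.2) within its range and Vsig4 (53.5) above it. Without day 0 replicate A, 10 stellate cell and fibroblast markers rose at day 45 and 8 in the knockout, and 10 Kupffer cell markers rose at day 45 and none in the knockout, while at day 21 the counts were 0 and 1. Without knockout replicates A and B, 1 knockout liver is left and far fewer of all genes pass, so that fit cannot decide on the knockout counts. In this liver the stellate cell and fibroblast sum was 342 FPKM, above day 0, and the Kupffer cell sum 224 FPKM, within the range of day 0. The sums of both lists at day 21, when Lyve1 and Pecam1 were called, thus lay above those of day 0. No stellate cell, fibroblast or Kupffer cell marker was at 0 in any library. The part of these cells in the levels of Cd34, Pecam1, Lyve1 and Fcgr2b was not tested.

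Of 4 B cell markers tested, 3 rose at day 21 (none without day 0 replicate A), 4 at day 45 and 1 in the knockout, and the sum of all 6 was 2.11 to 5.25 FPKM at day 0, 10 to 15.9 FPKM at day 21 and 11.4 to 15.1 FPKM at day 45. Cd79a, Ms4a1 and Cd22 averaged 0.642, 0.447 and 0.403 FPKM at day 0 and passed the filter through groups with higher levels, so their calls lend no support to these counts. Cd22 rose by 0.90 ± 0.16 (adjusted p = 0.00201), Cd79a by 1.22 ± 0.24 (0.00305), Ms4a1 by 0.79 ± 0.19 (0.01) and Cd79b by 1.27 ± 0.33 (0.0128). Of 8 platelet markers only Pf4 passed the filter, and it rose by 1.12 ± 0.37 at day 45 (adjusted p = 0.0391), with Gp9, Gp1ba, Gp1bb and Gp6 at 0 in at least 1 library. The 4 B cell markers passed at day 45 without day 0 replicate A as well and Pf4 did not (1.14, adjusted p = 0.0862). Without knockout replicates A and B, with 1 liver left, the knockout stood at 0.31 for Cd79b and −0.08 for Pf4 against day 0. The platelet sum was 2.13 to 2.86 FPKM at day 0, 3.99 to 4.91 at day 21, 4.81 to 7.97 at day 45, 10.4 and 11.3 at days 100 and 200 and 2.06 to 9.43 FPKM in the knockout. Of 3 lymphatic genes tested, 1 rose at day 21 (adjusted p = 0.0285; 0.0959 without day 0 replicate A) and at day 45, Flt4, and 2 at days 100 and 200, Flt4 and Reln, the latter by 0.95 ± 0.30 (adjusted p = 0.0305; 0.0725 without day 0 replicate A). With the length relation taken out neither Flt4 nor Reln passed at these times. The lymphatic sum, 21.9 to 35.1 FPKM at day 0, was 30.5 to 53.5 at day 21, 32.7 to 53.9 at day 45, 34.6 and 57.7 later and 19.1 to 40.7 FPKM in the knockout. Most of it was Prox1 and Reln. At day 0 Prox1 held 11.8, 17.1 and 21.7 FPKM and Reln 6.62, 6.56 and 7.53 FPKM, while Pdpn held 1.01 or less and Mmrn1 0.309 or less. Flt4 also stands among the further sinusoidal genes. The sum and counts are thus no measure of lymphatic vessels alone. Ccl21a was at 0 in 7 of 14 libraries. The part of platelets in Vwf and of lymphatic vessels in Lyve1 was not tested. Of the hepatocyte list, which checks the tissue, Alb is listed at 0 in all 14 libraries, Trf in 11 and Serpina1a in 10, so its sum is not given, nor a fold for Serpina1a, the one called higher in the knockout. Apoa1 was between 4942 and 14424 FPKM in every library and fell at days 100 and 200 by 0.94 ± 0.31 (adjusted p = 0.0357).

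Over the 14 libraries, genes whose levels followed each member closely were found by Pearson's r of log2(FPKM + 1), given as a description since the points share groups and length relations. Cd34 was most like Mbp (r = 0.99), Timp2 (0.99) and B9d1 (0.99). Pecam1 followed Ets1 (0.95), Map3k3 (0.95) and Mmrn2 (0.95), Vwf followed Eng (0.96) and Hspg2 (0.95), and Plvap followed Cfp (0.94), Ifitm1 (0.91) and Isg15 (0.91). Among the sinusoidal genes, Clec4g followed Hmga1 (0.98) and Rnps1 (0.92), Oit3 was most like Clec4g (0.90), Stab2 (0.88) and Mrc1 (0.88), and Stab2 was most like Supt6h (0.91), 6430548M08Rik (0.89) and Oit3 (0.88). Lyve1 was most like Nrg4 (0.86), Fam46c (0.86) and Abcg3 (0.86). Fcgr2b followed Gpr116 (0.93), Erg (0.93) and Ggps1 (0.92), and Kdr followed Ptprb (0.97), Gpr116 (0.95) and Fgd5 (0.93).

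The small RNA libraries hold a further endothelial readout, miR-126, which is made from an intron of the endothelial gene Egfl7. Its mature 3p strand in RefSeq (GRCm38.p6, chr2:26591402-26591423, plus strand) is shown with its seed, bases 2 to 8, in capitals, since the table gives 1 value for the microRNA without naming the strand.
mmu-miR-126a-3p: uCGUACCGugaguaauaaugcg
Scaled to the reads other than those of miR-122 (reads per 1000000, RPM), it stood at 37749, 42476 and 38189 RPM at day 0, at 30611, 31352 and 65338 at day 7, at 33552, 50870 and 63382 at day 14, at 45750, 34442 and 50260 at day 21 and at 33655, 28882 and 36749 RPM at day 45. The groups overlapped day 0 at days 7, 14 and 21, whereas the 3 livers of day 45 lay below it. The log2 differences were 0.01 ± 0.42, 0.27 ± 0.42, 0.12 ± 0.42 and −0.26 ± 0.42, with adjusted p = 0.998, 0.786, 0.941 and 0.744. Of the 253 microRNAs tested, 0.395%, 1.19%, 5.14% and 20.6% passed at those times. The single livers of days 100 and 200 held 18176 and 33206 RPM. Scaled to all reads, which include the falling miR-122, miR-126 was higher at days 14, 21 and 45, by 1.49, 1.54 and 1.32 on the log2 scale. The host mRNA Egfl7 stood at 19, 13.9 and 15.9 FPKM at day 0 and at 27, 39.9 and 32.5 FPKM at day 45, a rise of 0.98 ± 0.27 (adjusted p = 0.0194; 0.0314 without day 0 replicate A). Centred on endothelial genes, a list that holds Egfl7, the difference was 0.28 (adjusted p = 0.445).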

How the data were processed

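The RNA-seq libraries (poly-A RNA, TruSeq) were processed by the authors, who aligned paired reads to mm9 with TopHat and deposited FPKM from Cufflinks 2.2.1, with upper-quartile scaling and after taking out mitochondrial, ribosomal and small nucleolar RNA. Whether strand was used is not given in the sources used here. For the small RNA libraries the authors deposited RPM per microRNA from Bowtie 0.12.7, with 1 added to every value. The 1 was subtracted here, and RPM were rescaled to reads other than those of miR-122.

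Rows of the same symbol were summed (224 symbols), which left 21888 symbols. The 11354 genes with a mean of 1 FPKM or more over the 14 libraries were tested on log2(FPKM + 1), in 1 fit of 5 groups, with limma 3.58.1 in R 4.3.3 (eBayes with trend). A fold on this scale understates the change of low genes. P-values were adjusted by Benjamini-Hochberg over all genes within each of 7 comparisons, with 0.05 as the threshold. MicroRNAs with a mean of 10 RPM or more were tested likewise. FPKM carry no counts, so no counting intervals are given. The script was tested on simulated data.

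The 10 genes and all lists were chosen with earlier results of these data known. Named by rule were the 10 genes in every comparison, up to 4 genes per list with the smallest adjusted p at day 45 among those past the threshold against day 0, the 3 genes most like each of the 10, miR-126 and Egfl7. Some genes that the rule names are not reported here. Alternatives changed the pseudocount, filter, scaling, limma options, libraries and replicate letter. The length correction (a lowess curve of each library's difference from the mean library against log2 transcript length) and the fit without knockout replicates A and B were chosen after seeing the data. Members of the sequence tables were matched by symbol, with 5 of 10 promoters found and Lyve1, Oit3, Pecam1, Vwf and Plvap not. Libraries of 1 group are separate mice.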

Additional observations from a re-analysis of the deposited data

Results flagged for a closer look

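The change from day 0 differed between the knockout and the day 45 livers for 6 of the 10 genes by limma's test of the difference itself, which is the comparison of the knockout with day 45, since both are set against the same uninjected livers. The log2 difference, knockout minus day 45, was −1.36 for Clec4g, −1.33 for Lyve1, −1.2 for Kdr, −0.98 for Oit3, −0.9 for Pecam1 and −0.77 for Fcgr2b. The knockout and floxed mice also differ in that the first lost miR-122 in the germline and received no vector. Clec4g passed in each alternative run except the fit of those groups alone. Lyve1 passed in 15 of the 19 alternatives, Pecam1 and Fcgr2b in 8, Oit3 in 7 and Kdr in 6. With each library centred on its median, only Clec4g and Lyve1 of the 6 passed. No group held 4 or more RNA-seq libraries, so single libraries were not screened as outliers.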

How the results depend on the processing

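The count of genes past the threshold, 2, 3, 3 and 4 against day 0 at day 21, day 45, days 100 and 200 and in the knockout, was 1, 1, 1 and 4 centred on endothelial genes. It was 1 at days 100 and 200 centred on library medians, after quantile normalisation or with the length relation taken out, 1 at day 21 with no filter, and 1 in the knockout in the fit of the compared groups alone. For the knockout against day 45, 6 genes became 2 centred on medians, on endothelial genes or with the length relation taken out, 1 after quantile normalisation and 0 in the fit of those groups alone. Without knockout replicates A and B, 1 knockout liver is left. Its difference from day 45 was −1.58 for Lyve1, against −1.33 with all 3, and −1.46 for Plvap, against −0.49 with all 3. With 1 library left out at a time the counts ranged from 1 to 2 at day 21, 2 to 5 at day 45, 1 to 4 at days 100 and 200, 2 to 5 in the knockout, 0 to 1 for day 45 against day 21 and for days 100 and 200 against day 45, and 1 to 6 for the knockout against day 45. Where this left 1 library in a group, it was assumed to vary like the others. The causes were not tested.

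Centred on endothelial genes, the log2 difference changed sign in day 21 against day 0 for Stab2 −0.062, Clec4g −0.15, Oit3 −0.17 and Vwf −0.041, in day 45 against day 0 for Stab2 −0.33, Clec4g −0.21, Lyve1 −0.31, Oit3 −0.39 and Fcgr2b −0.12, in days 100 and 200 against day 0 for Stab2 −0.44, Clec4g −0.094, Lyve1 −0.041, Oit3 −0.46, Fcgr2b −0.057, Plvap −0.50 and Kdr −0.26, in day 45 against day 21 for Stab2 −0.26, Clec4g −0.066, Oit3 −0.22, Fcgr2b −0.17, Pecam1 −0.034 and Kdr −0.19, in days 100 and 200 against day 45 for Fcgr2b 0.063, in the knockout against day 45 for Cd34 0.61, Vwf 0.42 and Plvap 0.13. With the length relation taken out, the log2 difference changed sign in days 100 and 200 against day 0 for Stab2 −0.22, Oit3 −0.20, Plvap −0.21 and Kdr −0.066, in the knockout against day 0 for Stab2 0.012, in day 45 against day 21 for Stab2 −0.070, Clec4g −0.012, Oit3 −0.12, Fcgr2b −0.099 and Kdr −0.039, in days 100 and 200 against day 45 for Clec4g −0.072 and Vwf −0.067, in the knockout against day 45 for Cd34 0.17 and Vwf 0.33. Centred on library medians, the log2 difference changed sign in days 100 and 200 against day 0 for Stab2 −0.15, Oit3 −0.17 and Plvap −0.21, in day 45 against day 21 for Stab2 −0.13, Oit3 −0.087, Fcgr2b −0.038 and Kdr −0.057, in days 100 and 200 against day 45 for Clec4g −0.078 and Vwf −0.039, in the knockout against day 45 for Cd34 0.17. After quantile normalisation, the log2 difference changed sign in day 45 against day 0 for Lyve1 −0.015, in days 100 and 200 against day 0 for Stab2 −0.27, Lyve1 −0.021, Oit3 −0.19, Vwf −0.0049, Plvap −0.17 and Kdr −0.030, in day 45 against day 21 for Stab2 −0.18, Oit3 −0.10 and Kdr −0.071, in days 100 and 200 against day 45 for Lyve1 −0.0066 and Vwf −0.17, in the knockout against day 45 for Cd34 0.18 and Vwf 0.18. Without knockout replicates A and B, the log2 difference changed sign in the knockout against day 0 for Fcgr2b 0.23, Plvap −0.54 and Kdr 0.25. With 1 library of the groups of 3 left out at a time, ranges that crossed 0 were Oit3 −0.029 to 0.50 in day 21 against day 0, Stab2 −0.14 to 0.37, Oit3 −0.14 to 0.38 and Plvap −0.084 to 0.26 in days 100 and 200 against day 0, Pecam1 −0.057 to 0.44 in the knockout against day 0, Stab2 −0.18 to 0.19, Oit3 −0.090 to 0.17, Fcgr2b −0.026 to 0.18 and Kdr −0.13 to 0.26 in day 45 against day 21, Clec4g −0.055 to 0.060, Fcgr2b −0.11 to 0.097 and Vwf −0.056 to 0.27 in days 100 and 200 against day 45, Cd34 −0.36 to 0.46 and Vwf −0.34 to 0.012 in the knockout against day 45. Without day 100, the sign changed for Fcgr2b in days 100 and 200 against day 45 (0.079). Without day 200, the sign changed for Oit3 in days 100 and 200 against day 0 (−0.014), Clec4g in days 100 and 200 against day 45 (−0.076) and Lyve1 in days 100 and 200 against day 45 (−0.11).

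miR-126 scaled to all reads was at 1.49 at day 14 (adjusted p = 0.0124), 1.54 at day 21 (0.00765) and 1.32 at day 45 (0.0123), where the total includes the falling miR-122. Its difference at day 7 ranged from −0.35 to 0.20 with 1 library left out. A count model on recovered reads was planned and not run.

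With the replicate letter as a block (replicate block), 2 genes passed at day 21, 4 at day 45, 3 in the knockout, 0 for day 45 against day 21 and 4 for the knockout against day 45, and the miR-126 differences were 0.01, 0.27, 0.12 and −0.26. The block removed the call of Oit3 in the knockout against day 0 (adjusted p = 0.0813) and those of Oit3 (0.0662) and Kdr (0.0765) against day 45. With it Fcgr2b passed at day 45 against day 0 (0.041). Over all genes it gave 470 calls in place of 865 at day 21. No source says that a letter marks a shared animal, batch or day. Over 18 pairs of same-letter libraries, the correlation of deviations from the group means ran from −0.45 to 0.50 and was over 0.1 in 8. All 3 pairs of days 21 and 45 were over 0.1 (0.27, 0.24 and 0.50), and with the letter as a block in a fit of these 2 groups alone, chosen after seeing the data, 0 of the 10 genes and 1 of all genes passed, with 31 of all genes as reported. Days 100 and 200 carry no letters.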

Other observations

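The small RNA table also holds livers of the developing mouse, which no comparison above used. Scaled to the reads other than those of miR-122, miR-126 stood at 40194 and 31556 RPM in the 2 libraries of embryonic day 14. It stood at 24652 and 35194 RPM in those of embryonic day 18 and at 26231 and 27210 RPM in those of day 1 after birth. The libraries of day 8 held 64229 and 52853 RPM, and the single libraries of days 12, 17, 21 and 28 held 64387, 58956, 54169 and 32628 RPM. At day 270 the level was 22590 and 25970 RPM. The libraries of days 8 to 21 thus lay above those of day 1 and of day 270. The columns of 1 library of embryonic day 14, of day 28 and of 1 of day 270 sum to 677316, 661610 and 517113 RPM, below those of all other libraries, and each value is scaled to the sum of its own column. No test was made, and the share of vessels in these livers was not measured.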
